A study of Mus musculus with 6 samples.

Results

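The genes described here encode the subunits of the mitochondrial respiratory chain and of the ATP synthase, together with a family of complex I assembly factors, in mouse undifferentiated pleomorphic sarcoma cells with and without silencing of Postn, the gene of the secreted matrix protein periostin. Members were chosen by symbol (Nduf, Sdha to Sdhd, Uqcr, Cox4i, Cox5 to Cox8, Atp5, mt-Nd, mt-Co, mt-Cytb and mt-Atp), had to be protein-coding, and had to reach a mean of 1 CPM (a gene's counts scaled to the library's normalised size) over the 6 libraries. No comparison of groups entered this choice, though a mean over all libraries can be reached through 1 group alone, as with Cox6a2. Of 119 rows with a matching symbol, 12 were pseudogenes and 7 were protein-coding rows under 1 CPM, which left 100 members among 35727 rows. The nucleus encodes 87 of them and the mitochondrial genome 13. The lowest member was Ndufa4l2 at 1.46 CPM, and the highest row left out for its level was Cox7b2 at 0.521 CPM, both from counts over plain library totals.

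All 6 libraries came from 1 tumour cell line, p53 KO Ccne1 OE, which was derived from mesenchymal stem cells of female C57/Bl6 mice lacking p53, was given extra Ccne1 (the gene of cyclin E1) and red fluorescence (RFP) by retrovirus, and had been passaged as subcutaneous transplants in wild-type females. The line then received a viral vector with a scrambled hairpin (shSCR, 3 libraries) or a hairpin against Postn (shPostn, 3 libraries). Sample titles call these Postn-WT and Postn-KO. Both groups thus lacked p53 and overexpressed Ccne1, and both were grown as tumours in mice, from which RFP+ cells were sorted for poly(A) RNA sequencing. Age, time of growth and the number of mice are not given in the labels. Nothing in the labels ties each library to a tumour or mouse of its own, so p-values measure the spread between these libraries, which may be technical. A difference between the 2 derived lines that is unrelated to periostin cannot be told apart from an effect of the hairpin.

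The respiratory chain passes electrons from NADH (through complex I) and succinate (through complex II, which is also an enzyme of the citric acid cycle) by way of coenzyme Q to complex III, cytochrome c and complex IV, where oxygen is reduced to water. Complexes I, III and IV pump protons out of the mitochondrial matrix, and complex V, the ATP synthase, lets them return while making ATP. Every complex but the second combines subunits made from nuclear genes and imported into the organelle with subunits made inside it from mitochondrial DNA, and tumour cells are known to draw on this pathway to varying degrees.

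Library totals lay between 19603269 and 20376554 counts, and members took between 2.40% and 3.13% of them. Postn fell from 3639 ± 437 to 442 ± 212 CPM (SD, n = 3 each; edgeR log2 fold change −3.04, adjusted p = 0.0125; exact 2-sided permutation p = 0.1, the smallest that 3 against 3 libraries allow). One library, shPostn replicate 3, stood apart: summed macrophage markers reached 949 CPM there against 45.6 to 194 CPM in the other libraries, summed pan-leukocyte markers 296 against 23.2 to 73.0 CPM, and summed erythroid markers 27.6 against 0.152 to 10.1 CPM. All 8 skeletal muscle markers were under 1 CPM in every library (Myl1 was at 0 in all), and 4 of 5 adipocyte markers were at 0 throughout. The 6 sarcoma and fibroblast markers summed to between 22141 and 38158 CPM. In such bulk libraries, a smaller share of cells of one type and less RNA per cell cannot be told apart.

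The deposited table does not count some mitochondrially encoded genes cleanly, which bears on every level given for them. Nuclear chromosomes carry copies of mitochondrial DNA, and 9 of the 13 mitochondrial members (and 21 nuclear members) have an annotated pseudogene copy that is at least 95% identical over at least 200 bases. The copies Gm28661, Gm10925 and Gm28437, lie next to each other on chromosome 1 and match mt-Co2, mt-Atp6 and mt-Co3 without a mismatch. The transcript ends are shown to make the problem visible, from GENCODE M21 (GRCm38) at chrM:7013-7696, chrM:7927-8607 and chrM:8607-9390, plus strand, and at chr1:24614885-24615565, chr1:24613974-24614651 and chr1:24613189-24613971, minus strand. Capitals mark the bases that the annotated copy lacks.
mt-Co2, last 30 bases: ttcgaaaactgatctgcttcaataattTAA
Gm28661, same stretch: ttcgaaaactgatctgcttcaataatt
mt-Atp6, last 30 bases: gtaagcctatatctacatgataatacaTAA
Gm10925, same stretch: gtaagcctatatctacatgataataca
mt-Co3, last 30 bases: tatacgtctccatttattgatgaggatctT
Gm28437, same stretch: tatacgtctccatttattgatgaggatct
The annotated mt-Co2 transcript differs from its copy by its last 3 bases alone (684 against 681 bases), mt-Atp6 by its last 3 (681 against 678) and mt-Co3 by its last 1 (784 against 783). Reads from the shared bases cannot be assigned by sequence. An older copy, Gm13341 (chr2:22587291-22587962, minus strand), shows what a copy that can be told apart looks like; it differs from mt-Co2 at 2 positions of the 60 bases below, which are in capitals.
mt-Co2: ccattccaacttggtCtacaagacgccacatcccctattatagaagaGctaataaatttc
Gm28661: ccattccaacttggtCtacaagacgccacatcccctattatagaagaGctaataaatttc
Gm13341: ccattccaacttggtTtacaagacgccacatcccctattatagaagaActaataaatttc

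In the table, the row of mt-Co2, a catalytic subunit of complex IV, held 27.3, 21.8 and 10.9 CPM in shSCR and 24.6, 25.7 and 24.1 CPM in shPostn. With its copies added it held 4226, 4248 and 5262 CPM in shSCR and 4022, 3524 and 3344 CPM in shPostn. Its own row was thus 0.545% of the sum, and this share ranged from 0.207% to 0.730% across libraries. For mt-Atp6, a proton channel subunit of complex V, the own row was 15.3% of the sum, with 9.81% to 13.3% in shSCR and 16.1% to 20.8% in shPostn. For mt-Co3 it was 22.9%, with 17.5% to 23.0% in shSCR and 25.99% to 27.9% in shPostn. The shares of mt-Atp6 and mt-Co3 did not overlap between the groups, so the fold change of their own rows and of their sums differ. Other splits affected mt-Nd3 (own row 91.3% of the sum) and mt-Co1 (99.99%), and among nuclear members Ndufb4 (40.5%), Atp5g2 (8.55%) and Ndufa12 (97.6%). The share of mt-Nd3 varied by library, as its copy Gm28438 held 145, 0 and 339 counts in shSCR and 656, 667 and 0 in shPostn. Gm28439 and Gm10222, which match stretches of mt-Nd4 and mt-Nd4l without a mismatch, held 0 counts in every library. Levels with copies added are used below wherever genes are compared with each other. This sum was chosen after seeing the data, and which rows the reads came from was not tested.

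**Figure D1:**
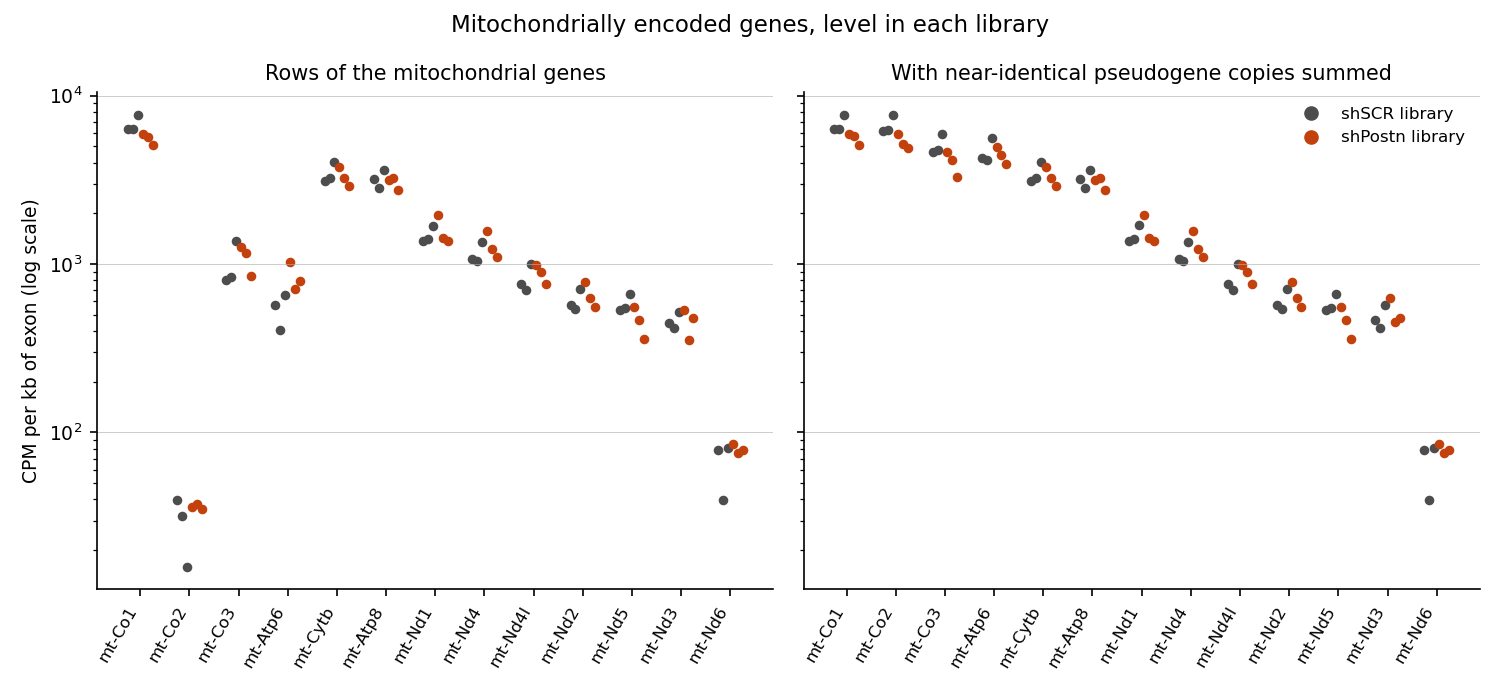
Level of the 13 mitochondrially encoded genes in each library (CPM per kb of exon, log scale; grey shSCR, orange shPostn), from their own rows on the left and with near-identical pseudogene copies added on the right. On the left mt-Co2 lies near 32.7 CPM per kb on average, on the right near 6001, beside mt-Co1 at 6178.

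With copies added, the mitochondrial members formed a ladder of levels per length that spanned from mt-Co1 at 6178 to mt-Nd6 at 72.9 CPM per kb. Complex IV transcripts were at the top, with mt-Co2 at 6001 and mt-Co3 at 4556 CPM per kb. The complex V genes mt-Atp6 (4538) and mt-Atp8 (3128) and mt-Cytb (3387), the cytochrome b of complex III, came next. The 7 complex I genes were lowest, at 1537 (mt-Nd1), 1226 (mt-Nd4), 852 (mt-Nd4l), 633 (mt-Nd2), 521 (mt-Nd5) and 503 (mt-Nd3) CPM per kb, with mt-Nd6, the one member encoded on the other strand, at the foot. Neighbours in this order overlapped over the 6 libraries (mt-Co1 spanned 5091 to 7702 and mt-Co2 4889 to 7693 CPM per kb), except at 3 steps, below mt-Atp8, below mt-Nd4 and above mt-Nd6. The molecule sequenced was poly(A) RNA, and tail length was not measured. Per length, with all annotated exons of a gene joined, the highest nuclear members were Atp5a1 (224 CPM per kb), Atp5b (221) and Cox8a (214). Atp5a1 and Atp5b are the catalytic F1 pair of the ATP synthase. On this scale they and Cox8a lay far under the mitochondrial genes other than mt-Nd6. The joined length can far exceed that of a transcript (Cox6c, 3567 against 503 bases). Ranks of nuclear genes per length, here and below, therefore depend on the annotation.

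None of the 13 mitochondrial members passed the edgeR test (adjusted p under 0.05 over all 12819 genes tested), where 10.1% of all genes did. At an unadjusted p under 0.05 there were 2 (27.0% of all genes tested), and DESeq2 called the same number, mt-Atp6 and mt-Co1. The complex IV genes had lower values in shPostn once copies were added. mt-Co1 measured 9790, 9806 and 11898 CPM in shSCR and 9086, 8821 and 7866 CPM in shPostn, so that the groups did not overlap; its log2 fold change was −0.29 (standard error, SE, 0.12; adjusted p = 0.167). mt-Co2 with copies had a log2 fold change of −0.34 (SE 0.12, adjusted p = 0.132), against 0.31 for its own row. mt-Co3 with copies had −0.34 (SE 0.16, adjusted p = 0.219), against 0.12 for its own row. The groups overlapped for mt-Co3 by its own row and with copies, and for mt-Co2 by its own row alone. The sign of both genes therefore depended on whether the copies were added. Over the 3 genes, the sum with copies was 17617, 17767 and 21825 CPM in shSCR and 16740, 15597 and 13784 CPM in shPostn; every shPostn library was below every shSCR library.

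Outside complex IV, the groups overlapped for every mitochondrial gene but mt-Atp6. The own row of mt-Atp6 held 387, 275 and 449 CPM in shSCR and 700, 485 and 538 CPM in shPostn (log2 fold change 0.63, SE 0.21, adjusted p = 0.1203). With the copy added, the groups overlapped and the log2 fold change was −0.07. The log2 fold change was −0.07 (adjusted p = 0.709) for mt-Atp8, the small complex V subunit whose reading frame overlaps that of mt-Atp6, and −0.06 (0.822) for mt-Cytb. Among the membrane subunits of complex I, log2 fold changes were 0.10 for mt-Nd1, 0.11 for mt-Nd2, 0.17 for mt-Nd4, 0.11 for mt-Nd4l, 0.27 for mt-Nd6, −0.34 for mt-Nd5 and −0.01 for mt-Nd3 (0.11 with its copy). The lowest adjusted p among these 7 was 0.266, for mt-Nd5. Its levels were 971, 999 and 1214 CPM in shSCR and 1016, 852 and 651 CPM in shPostn, the last from the library with high leukocyte markers. The mitochondrial members took 1.76% to 2.46% of the counts by their own rows, and 2.51% to 3.67% with copies. The median log2 fold change of the 13 was 0.11 by own rows and −0.06 with copies.

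Across both genomes, 5 of the 100 members passed the test, against 10.1% of all genes tested. Of these 1 rose (4.61% of all genes were called higher) and 4 fell (5.53% were called lower). The median log2 fold change of the members was −0.04, against 0.01 for all genes, and 86 members lay within 0.25 of 0 on the log2 scale. Libraries of the groups did not overlap for 22 members (33.6% of all genes), 6 of them higher in shPostn (16.6% of all genes) and 16 lower (17.0%). Negative values outnumbered positive ones, 65 to 35, against 6207 negative and 6612 positive over all genes. Both the share called and the share without overlap were below those of all genes. The same shares of all genes apply to the counts in each complex and gene list below. With shPostn replicate 3 left out, 4 members were called higher (Atp5mpl, Atp5j, Ndufb10 and Atp5s) and 6 lower (Ndufa2, Ndufs4, Atp5a1, Cox6a2, Ndufa4l2 and Sdhc), where 7.93% and 9.20% of 12957 genes were called (17.1% in all). The median of the members was then −0.01. Of the 6 lower, Cox6a2 and Ndufa4l2 reached 1 CPM only in shSCR once that library was out.

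**Figure D2:**
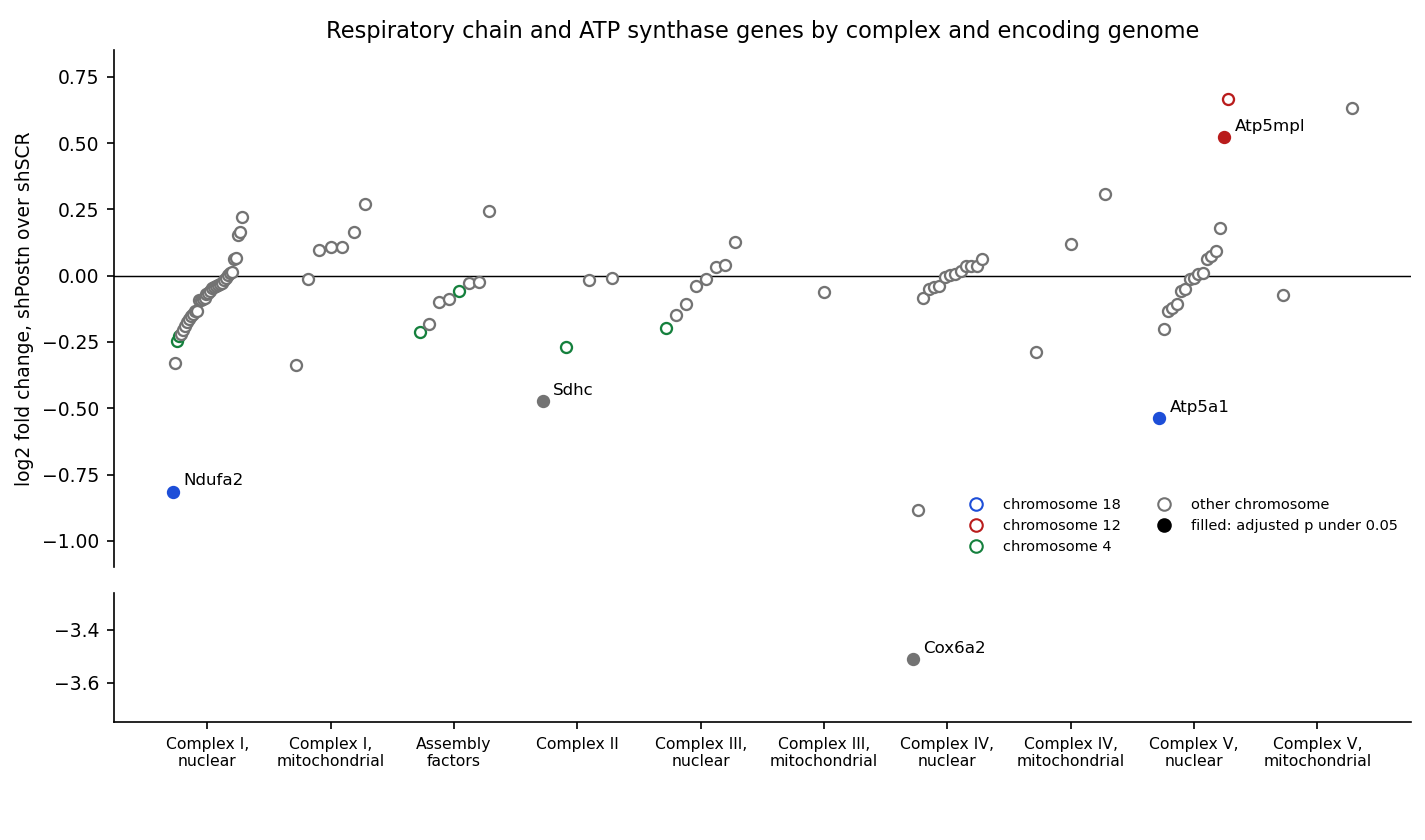
log2 fold change of the 100 members from the deposited rows (shPostn over shSCR; each point 1 gene, ordered by value within a column) by complex and encoding genome; filled points passed the edgeR test, colour marks chromosomes 4, 12 and 18, and the vertical axis is broken, with the same scale above and below the break. Most points lie within 0.25 of 0, and Cox6a2 at −3.51 stands alone.

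Complex I oxidises NADH and is the largest complex, with 36 nuclear subunit genes among the members. Ndufa2 fell (5.53% of all genes were called lower), and the other 35 were not called in either direction. Ndufa2, an accessory subunit of the arm that reaches into the matrix (ENSMUSG00000014294, chromosome 18, 36742332 to 36744557, minus strand), held 46.3, 45.5 and 45.7 CPM in shSCR and 26.4, 28.1 and 23.7 CPM in shPostn. The shSCR libraries were nearly equal and all 3 shPostn libraries were far below them. Its log2 fold change was −0.81 (SE 0.08, edgeR adjusted p = 0.00351), and it stayed called with each library left out in turn. Ndufs4, an accessory subunit known for its loss in a mouse model of Leigh syndrome, held 38.5, 37.3 and 37.0 CPM in shSCR and 31.5, 31.5 and 26.8 CPM in shPostn, without overlap; its log2 fold change of −0.33 (SE 0.08) just missed the threshold (adjusted p = 0.050015). It passed under DESeq2 (adjusted p = 0.0308) and limma-voom (0.0473). In edgeR it passed with upper quartile scaling (0.0377), relative log expression (0.0486), library totals (0.0449) and the leukocyte covariate (0.0280). It also passed with the other count filters (0.0467 and 0.0444) and without shPostn replicate 3 (0.0467). It was not called with chromosome medians taken out (0.0701), under the replicate block (0.0777) or with any other library left out. Nor was it called with mitochondrial RNA left out of scaling or with copies summed.

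The most abundant nuclear complex I members per length were Ndufb6 (82.8 CPM per kb; log2 fold change −0.23, adjusted p = 0.128) and Ndufb9 (74.0 CPM per kb; −0.03, adjusted p = 0.848), both of the membrane arm. Ndufb10 had the highest positive value of the nuclear subunits, 0.22 (adjusted p = 0.1295).

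The 8 Ndufaf genes encode factors that assist the building of complex I and are absent from the finished enzyme. None was called. The most abundant of them per length were Ndufaf8 (11.1 CPM per kb) and Ndufaf4 (7.27). The largest changes were 0.24 for Ndufaf3 (SE 0.26, adjusted p = 0.593) and −0.21 for Ndufaf6 (SE 0.15, adjusted p = 0.424), neither beyond the spread of the libraries. Of 10 further complex I assembly factors tested, 0 were called and the median log2 fold change was 0.03.

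Complex II, succinate dehydrogenase, is wholly nuclear encoded. All 4 genes had negative values, as did 6207 of the 12819 genes tested, and 1 was called lower (5.53% of all genes). The groups did not overlap for 2 of the 4, both lower in shPostn (17.0% of all genes). Sdhc, one of the 2 membrane anchors that bind heme and coenzyme Q (ENSMUSG00000058076, chromosome 1, 171127165 to 171150603, minus strand), held 79.7, 90.5 and 83.2 CPM in shSCR and 66.6, 57.2 and 58.7 CPM in shPostn. The groups did not overlap, and Sdhc fell by 0.47 on the log2 scale (SE 0.08, edgeR adjusted p = 0.0156). The call was lost without shPostn replicate 2 (adjusted p = 0.0545), shSCR replicate 2 (0.0725) or shSCR replicate 3 (0.0618), while the log2 fold change stayed between −0.48 and −0.42 in these fits. Sdhb, the iron-sulfur subunit on chromosome 4, held 89.4, 97.5 and 83.8 CPM in shSCR and 78.3, 73.9 and 72.1 CPM in shPostn, also without overlap, with a change of −0.27 on the log2 scale (SE 0.07, adjusted p = 0.0612). The flavoprotein Sdha and the other anchor, Sdhd (the most abundant per length, at 52.8 CPM per kb), had log2 fold changes of −0.01 each, with adjusted p of 0.926 and 0.959. Summed over the 4 genes, complex II came to 384 ± 17.2 CPM in shSCR and 343 ± 20.9 CPM in shPostn (SD, n = 3 each), and the groups did not overlap. Of 4 complex II assembly factors, Sdhaf2, which helps to attach the flavin to Sdha, rose from 20.04 ± 0.223 to 25.4 ± 0.305 CPM (log2 fold change 0.34, edgeR adjusted p = 0.0204), and 3 were not called.

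Complex III, the cytochrome bc1 complex, had no called member among its 8 nuclear genes, whose log2 fold changes ran from −0.20 to 0.13. The most abundant per length were Uqcr10 (78.5 CPM per kb) and the hinge protein gene Uqcrh (77.8). Uqcrh, on chromosome 4, also had the largest change: 100, 101 and 107 CPM in shSCR and 92.1, 85.6 and 91.1 CPM in shPostn, without overlap (log2 fold change −0.20, SE 0.06, adjusted p = 0.0802). Uqcrq followed with −0.15 (adjusted p = 0.218). Of 7 further genes, cytochrome c1 and the assembly factors, 0 were called.

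Complex IV, cytochrome c oxidase, held the largest change of any member. Of its 14 nuclear genes (Ndufa4, Ndufa4l2 and the supercomplex factor Cox7a2l counted here) 1 fell, 0 rose and 13 were not called. Over all genes tested, 5.53% were called lower and 4.61% higher. Cox6a2, the heart and skeletal muscle isoform of subunit 6a (ENSMUSG00000030785, chromosome 7, 128205435 to 128206387, minus strand), held 4.23, 11.5 and 5.23 CPM in shSCR and 0.615, 0.808 and 0.399 CPM in shPostn. The shSCR libraries varied, with replicate 2 the highest, yet all were above the shPostn libraries. Every shPostn library was under 1 CPM, so Cox6a2 reached the level for members through shSCR alone. A gene this low in shPostn is a member only if it is higher in shSCR. The log2 fold change was −3.51 (SE 0.48, edgeR adjusted p = 0.00849), and the call held without each library in turn. These values rest on 425 counts in shSCR and 36 in shPostn, a ratio of 11.6 with a 95% exact interval of 8.24 to 16.8 that covers counting error only. Its ubiquitous counterpart Cox6a1 held 99.6, 109 and 90.7 CPM in shSCR and 105, 97.8 and 100 CPM in shPostn (log2 fold change 0.02, adjusted p = 0.908). Per length Cox6a2 averaged 5.59 CPM per kb and Cox6a1 143, so the muscle isoform was the minor one in both groups. The skeletal muscle markers, all under 1 CPM, summed to 0.738, 1.51 and 1.12 CPM in shSCR and to 0.410, 0.455 and 1.25 CPM in shPostn, where replicate 3 was the high one. The 1 of them with enough counts to test, Tnnt3, had a log2 fold change of −0.94 and was not called; without shPostn replicate 3 it had −2.24 and was called lower. Their part in the Cox6a2 result was not tested. Des, the muscle intermediate filament gene desmin, is outside that marker list and was added once its value had been seen. Des fell from 9.09 ± 3.13 to 0.804 ± 0.528 CPM (log2 fold change −3.49, adjusted p = 0.01997).

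The other isoform pairs of complex IV were carried by the ubiquitous gene. Cox4i1 (131 CPM per kb) had a log2 fold change of −0.01 (adjusted p = 0.972), while its lung and hypoxia associated counterpart Cox4i2 had 3 counts in shSCR and 4 in shPostn over 3 libraries each. Cox6b1 had 0.01 and its testis isoform Cox6b2 was at 0 in all libraries. Cox7a2 and Cox7a2l had 0.00 and 0.04, while the muscle isoform Cox7a1 had 12 and 8 counts. Cox8a, the most abundant nuclear complex IV gene per length, had 0.03 (adjusted p = 0.802), while Cox8b and Cox8c were at 0 throughout; a count of 0 allows up to 3 counts, for counting error only. Cox7b2, which missed the level for members, had 57 counts in shSCR and 6 in shPostn (ratio 9.33, 95% exact interval 4.03 to 26.5). Ndufa4, now counted as a complex IV subunit, had −0.04 (adjusted p = 0.822). Ndufa4l2, its hypoxia-induced paralog, held 1.62, 2.98 and 1.07 CPM in shSCR and 0.308, 0.404 and 2.35 CPM in shPostn (log2 fold change −0.88, SE 0.82, adjusted p = 0.543). Its high shPostn value came from replicate 3, and without that library the log2 fold change was −2.39 (adjusted p = 0.0234); it was called there and in the fit with leukocyte markers as a covariate (−1.84, adjusted p = 0.0401). The part of the leukocyte markers in this value was not tested otherwise. The other shPostn libraries were under 1 CPM. Without replicate 3 the level for members was thus reached through shSCR alone, as for Cox6a2, which limits what that call shows. Of 21 complex IV assembly factors tested, Cox14 rose from 34.1 ± 2.11 to 42.3 ± 2.29 CPM (log2 fold change 0.31, adjusted p = 0.0454) and 20 were not called. With chromosome medians taken out, Cox14 had 0.30 (adjusted p = 0.0673) and was not called.

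**Figure D3:**
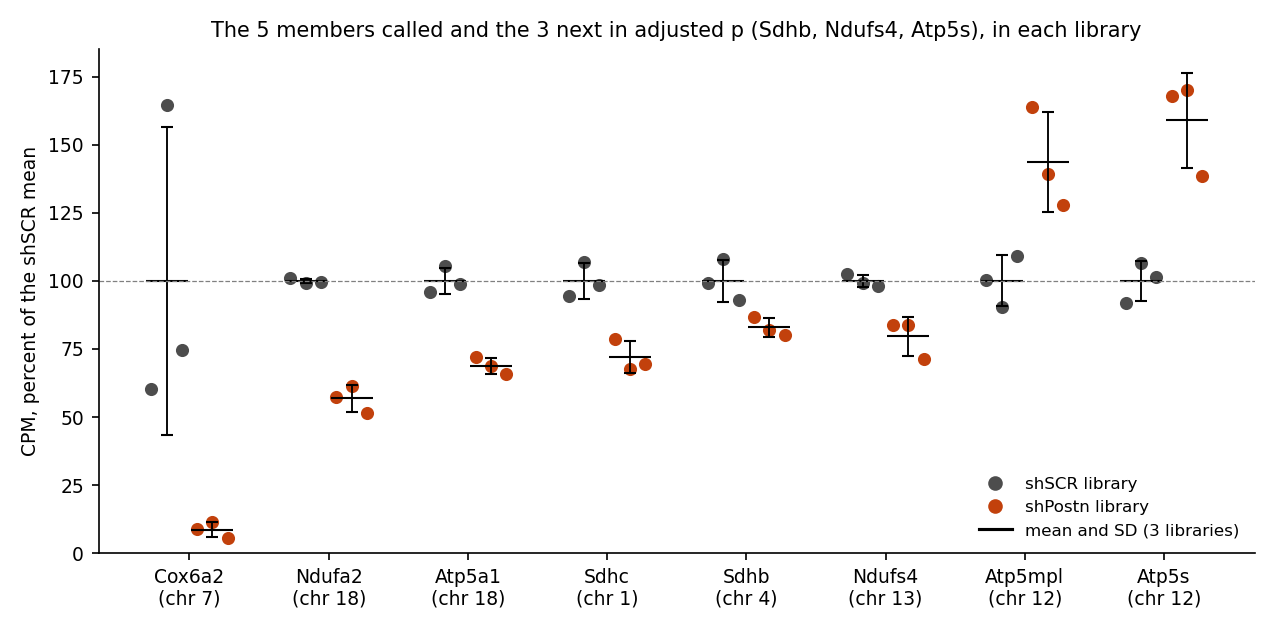
CPM of the 5 called members and of the 3 with the next lowest adjusted p (Sdhb, Ndufs4 and Atp5s) in each library, as percent of the shSCR mean, with mean and SD (n = 3 each). In all 8 genes the grey shSCR and orange shPostn points do not overlap, and Cox6a2 averages 8.69% of its shSCR level in shPostn against 56.8% for Ndufa2 and 68.9% for Atp5a1.

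Complex V, the ATP synthase, had 17 nuclear members, of which 1 rose, 1 fell and 15 were not called (all genes: 4.61% higher, 5.53% lower). Atp5a1, the alpha subunit of the catalytic head (ENSMUSG00000025428, chromosome 18, 77773729 to 77782869, plus strand), held 797, 875 and 820 CPM in shSCR and 597, 571 and 548 CPM in shPostn. Every shPostn library was below every shSCR library, and Atp5a1 fell by 0.54 on the log2 scale (SE 0.07, edgeR adjusted p = 0.00740), a call kept without each library in turn. Its partner in the same hexamer, the beta subunit gene Atp5b on chromosome 10, held 928, 1003 and 878 CPM in shSCR and 1009, 922 and 891 CPM in shPostn (log2 fold change 0.01, adjusted p = 0.969). The 2 genes were alike in level per length, at 224 and 221 CPM per kb over all libraries, and whether their changes differ was not tested. Atp5mpl, a small membrane subunit also called the 6.8 kDa proteolipid (ENSMUSG00000021290, chromosome 12, 111961375 to 111966977, minus strand), rose from 28.4, 25.6 and 30.9 CPM in shSCR to 46.4, 39.4 and 36.2 CPM in shPostn, without overlap, a gain of 0.52 on the log2 scale (SE 0.11, edgeR adjusted p = 0.0331). Without any one library other than shPostn replicate 3 the call was lost, with adjusted p of 0.0651 to 0.135. Atp5s, whose product is related to coupling factors of the enzyme and is no subunit, held 2.95, 3.42 and 3.25 CPM in shSCR and 5.38, 5.46 and 4.44 CPM in shPostn (chromosome 12; log2 fold change 0.67, SE 0.18, adjusted p = 0.0590).

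The 3 genes of the c ring, which encode the same mature protein, had log2 fold changes of −0.06 (Atp5g1), −0.11 (Atp5g2; 0.04 with its copy Gm10175 added) and 0.06 (Atp5g3), with adjusted p of at least 0.627. The remaining complex V members lay between −0.20 (Atp5l) and 0.18 (Atp5j, adjusted p = 0.0956). Some genes close to the pathway have symbols outside the rule. Usmg5, another small subunit, had a log2 fold change of 0.16 (adjusted p = 0.157), the inhibitor Atpif1 −0.13 (0.320), Cyc1 −0.11 (0.477) and cytochrome c, Cycs, −0.17 (0.395). Of 5 complex V assembly factors tested, Atpaf1, which binds the beta subunit before assembly, fell from 27.0 ± 0.964 to 22.3 ± 0.152 CPM (log2 fold change −0.27, adjusted p = 0.0454); it lies on chromosome 4, and with chromosome medians taken out it had −0.13 (adjusted p = 0.303) and was not called.

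Of the 5 called members, 3 lie on the 2 chromosomes whose genes shifted as a whole. The median log2 fold change of genes above 4 CPM was −0.45 on chromosome 18 (281 genes) and 0.39 on chromosome 12 (374 genes); on chromosome 18, 166 of 343 genes tested were called lower and 1 higher, and on chromosome 12, 167 of 468 were called higher and 8 lower. Both members on chromosome 18 (Ndufa2 and Atp5a1) fell, and both on chromosome 12 had positive values, with Atp5mpl called. Within 3 Mb of Atp5a1, 30 genes tested had a median of −0.42, and 18 of them were called lower. Around Ndufa2 the median of 93 genes was −0.47 and around Atp5mpl that of 47 genes was 0.37. With each chromosome's median taken out of the fit, neither Atp5a1 (log2 fold change −0.09, adjusted p = 0.509) nor Atp5mpl (0.13, adjusted p = 0.539) was called. Ndufa2 kept −0.37 (adjusted p = 0.0455), Sdhc −0.45 (0.0298) and Cox6a2 −3.46 (0.0146). In that fit 0 members were called higher and 3 lower, where 2.29% and 2.81% of all genes were (5.10% in all).

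Chromosome 4 showed a smaller shift, with a median of −0.14 (665 genes), and 114 of 780 genes tested were called lower and 18 higher. All 6 members on it, Sdhb, Ndufs5, Ndufb6, Ndufaf6, Uqcrh and Ndufaf4, had negative values between −0.27 and −0.06, and 5 did not overlap between the groups (17.0% of all genes were lower without overlap), but 0 were called. Their median was −0.22, and −0.08 with chromosome medians taken out. Sdhb then had −0.13 (adjusted p = 0.355). With medians left in, the 47 genes tested within 3 Mb of Sdhb had a median of −0.11, with 5 called lower and 2 higher. The 77 nuclear members on other chromosomes had a median of −0.04, and Sdhc and Cox6a2 were the ones called among them. The genes within 3 Mb of Sdhc (57 tested) had a median of 0.00 and those around Cox6a2 (100 tested) one of −0.07.

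**Figure D4:**
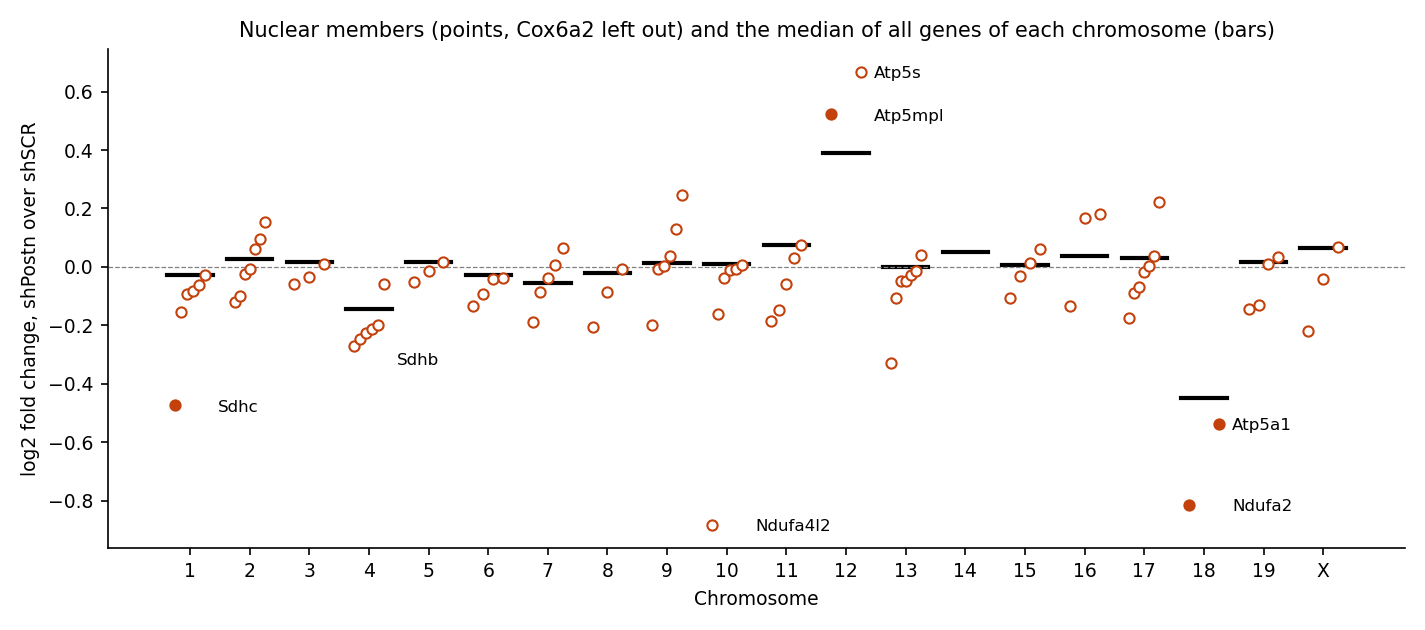
log2 fold change of the nuclear members (points, filled where called; Cox6a2 on chromosome 7, at −3.51, is left out) by chromosome, with the median of all genes above 4 CPM on that chromosome as a bar. The bars of chromosome 12 (0.39) and 18 (−0.45) stand away from 0, and Atp5mpl, Atp5s, Ndufa2 and Atp5a1 lie beyond them on the same side, while Sdhc lies far from the bar of chromosome 1.

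Summed over genes, the nuclear members held 6969 ± 298 CPM in shSCR and 6547 ± 303 CPM in shPostn (SD, n = 3 each), and the groups overlapped. Nuclear complex I summed to 1701 ± 58.0 and 1592 ± 72.7 CPM, complex III to 551 ± 16.5 and 541 ± 20.41 CPM, complex IV to 1216 ± 65.6 and 1214 ± 49.5 CPM and complex V to 3025 ± 141 and 2768 ± 148 CPM, all with overlap on this scale. On CPM of plain library totals, nuclear complexes I and V did not overlap between the groups, and per kb nuclear complex I did not; shPostn was the lower group in each. Complex V rests largely on Atp5a1 and Atp5b. On normalised CPM, Atp5a1 (chromosome 18) averaged 831 CPM in shSCR and 572 CPM in shPostn, while Atp5b averaged 936 and 941 CPM. The fall of Atp5a1 was thus as large as that of the complex V sum, and most of that of the nuclear sum. The mitochondrial members with copies summed to 32002 ± 4277 CPM in shSCR and 28116 ± 3326 CPM in shPostn, again with overlap, since shSCR replicate 3 (36940 CPM) was high and the other shSCR libraries (29507 and 29557 CPM) lay between shPostn replicates 1 (31487 CPM) and 2 (28022 CPM). shPostn replicate 3, the library with high macrophage markers, had the lowest mitochondrial sum (24838 CPM). The sums of complex II and of mitochondrial complex IV did not overlap between the groups on normalised CPM or per kb, with or without copies, nor on plain library totals without copies.

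**Figure D5:**
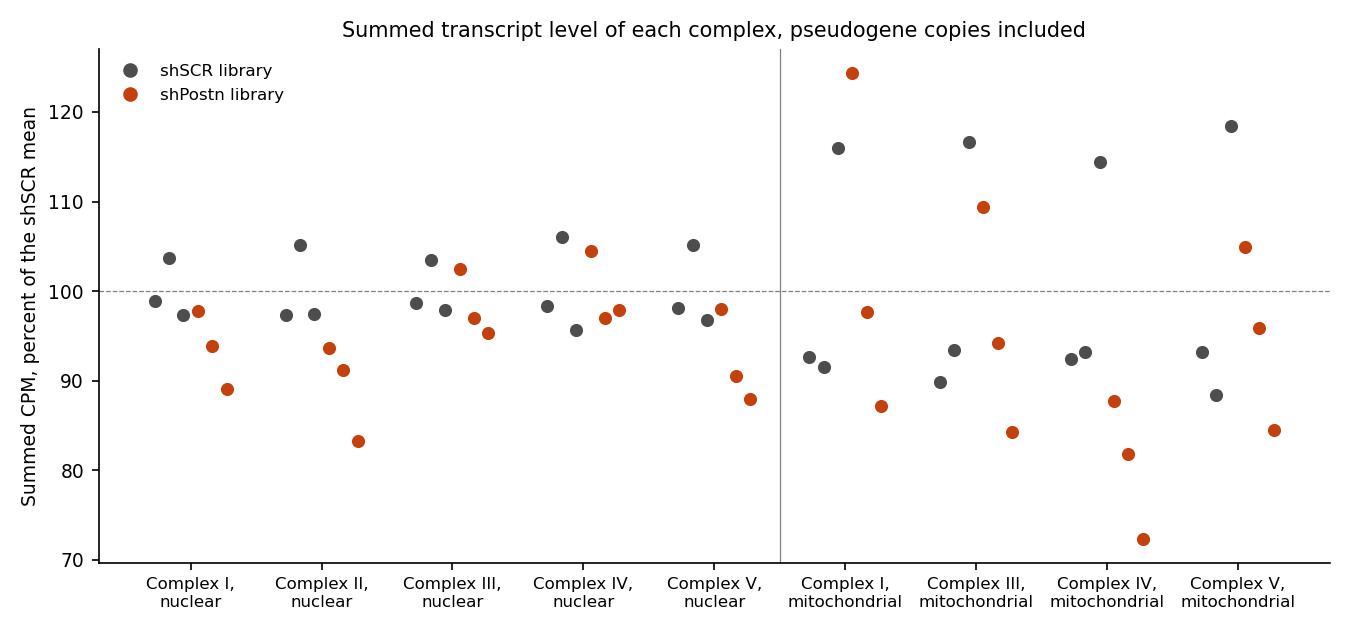
Summed CPM of each complex, split by encoding genome, in each library as percent of the shSCR mean, with pseudogene copies added (grey shSCR, orange shPostn; the axis starts above 0). Nuclear sums vary less between libraries than mitochondrial ones, and the groups are separate for complex II and for mitochondrial complex IV, where shPostn averages 89.4% and 80.6% of shSCR.

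Nuclear respiratory genes are known targets of the factors NRF1, GABP (an ETS factor) and YY1, and their promoters were read to see which members carry those motifs. A RefSeq window of 300 bases (250 before to 50 after the start, GRCm38.p6) was found for 72 of the 87 nuclear members, with no entry used for Ndufa2, Sdhc, Cox6a2, Atp5a1 or Atp5mpl. On either strand, the NRF1 core CGCATGCGC was present in 10 windows (13.9%), against 2.61% of 17492 protein-coding genes. The ETS core CCGGAAG was in 18 (25%, against 12.9%) and the YY1 motif AAGATGGC in 11 (15.3%, against 3.57%), and at least 1 of the 3 in 33 (45.8%, against 17.7%). An ETS core that ends in AAG can share those letters with a YY1 motif. Members with the NRF1 core came from complexes I, III, IV and V and from the assembly factors. Stretches around the core (in capitals, on the gene's strand) are shown for one gene of complex IV (chr5:115349087-115349145, minus strand), one of complex V (chr15:102671056-102671114, minus strand) and a pair of complex III (chr10:80406793-80406851, minus strand, and chr9:108936653-108936697, plus strand).
Cox6a1: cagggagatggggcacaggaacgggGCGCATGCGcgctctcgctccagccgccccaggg
Atp5g2: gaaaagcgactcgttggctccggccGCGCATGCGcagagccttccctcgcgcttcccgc
Uqcr11: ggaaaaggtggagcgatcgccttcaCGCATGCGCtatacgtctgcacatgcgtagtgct
Uqcrc1: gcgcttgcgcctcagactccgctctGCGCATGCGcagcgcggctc
The 4 genes had log2 fold changes of 0.02 (Cox6a1), −0.11 (Atp5g2), −0.01 (Uqcr11) and 0.13 (Uqcrc1), and 0 of them were called. A match describes the letters and does not show binding.

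Of 10 regulators of respiratory genes tested, 9 were not called and Yy1 rose, at 93.1 ± 4.39 CPM in shSCR and 117 ± 3.02 CPM in shPostn (log2 fold change 0.33, SE 0.06, edgeR adjusted p = 0.0191). Yy1 lies on chromosome 12, and with chromosome medians taken out its log2 fold change was −0.06 (adjusted p = 0.571). Of the 18 genes of mitochondrial DNA replication and transcription, 0 were called. Of 16 genes of mitochondrial RNA processing, 2 rose and 1 fell, where 4.61% and 5.53% of all genes were called higher and lower. An unadjusted edgeR p under 0.05 was held by 8 of these 16, 4 of the 18 before them and 4 of the 10 regulators. Over all genes tested this share was 27.0%. Slirp, which stabilises mitochondrial mRNA, rose by 0.42 on the log2 scale (adjusted p = 0.0220; chromosome 12), as did Grsf1, a protein of mitochondrial RNA granules (0.24, adjusted p = 0.0440). Mtpap, the mitochondrial poly(A) polymerase, fell by 0.53 (adjusted p = 0.0170; chromosome 18). With chromosome medians taken out, Slirp had 0.03, Mtpap −0.09 and Grsf1 0.22 (adjusted p = 0.849, 0.636 and 0.0748), and none was called.

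Other mitochondrial functions are given beside the 10.1% of all genes called and the 27.0% with an unadjusted p under 0.05. Of 78 mitochondrial ribosomal protein genes, 0 were called by edgeR, 7 had an unadjusted p under 0.05 and 77 lay within 0.25 of 0, with a median of −0.04. Of 14 genes of coenzyme Q synthesis and cytochrome c, 0 were called, and 2 had an unadjusted p under 0.05. Of 18 citric acid cycle genes, Dld, the shared dihydrolipoamide dehydrogenase, rose (log2 fold change 0.36, adjusted p = 0.0267; chromosome 12; −0.03 with chromosome medians taken out). Of 23 protein import genes, Timm21 of the inner membrane translocase fell (−0.55, adjusted p = 0.0224; chromosome 18; −0.10 with chromosome medians taken out). Of 11 mitochondrial antioxidant and uncoupling genes, 0 were called. An unadjusted edgeR p under 0.05 was held by 4 of the citric acid cycle genes, 5 of the import genes and 1 of these 11. The 10 hypoxia-induced genes tested had a median log2 fold change of −0.27, with 9 negative values and 0 called; without shPostn replicate 3, 5 of them were called lower, where 9.20% of all genes were, and the median was −0.42.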

How the data were processed

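TRIzol was used to extract RNA, and BGI prepared the strand-specific DNBSEQ mRNA libraries, per the labels' protocols. The deposited values are the authors' estimated counts for Ensembl genes. Salmon and mm10 are named in the submitters' processing notes. Which Salmon release and transcript set were used, and whether counting used strand, is not given in the sources used here. Every deposited value was a whole number (0 were not), so rounding changed nothing. Totals of 19603269 to 20376554 counts per library set the precision. Without molecular identifiers, all intervals cover counting error only.

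IDs were matched to GENCODE M21 (GRCm38) for symbols, positions and exon lengths (35422 of 35727 rows), and unmatched IDs held 0.0536% to 0.0791% of a library's counts. The rule's mt-Cyb is mt-Cytb in that release. Near-identical pseudogene copies (at least 95% over at least 200 bases) were found with BLAST 2.17.0 among its transcripts, and their counts were added to the member where "with copies" is written.

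Counts were fitted with edgeR 4.0.16 in R 4.3.3: filterByExpr with a minimum count of 10, TMM, a robust quasi-likelihood F-test of shPostn against shSCR with no covariate, and Benjamini-Hochberg adjustment over 12819 genes with a threshold of 0.05. All 100 members passed the filter. Log2 fold changes are shPostn minus shSCR, and their SE is the size over the root of F. CPM use TMM-scaled library sizes, except that the level for members used plain library totals. Levels per kb divide CPM by the joined length of all annotated exons of a gene, over all its transcripts. The script was tested on simulated data. Ratios of low counts have exact conditional 95% intervals.

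Named genes are all mitochondrial members, all called members, the 2 most abundant per length in each complex (also taken among nuclear members alone), the 2 with the largest change where none was called, isoforms, members on chromosomes 12 and 18, and the called gene with the largest change each way in each gene list. Ndufs4, Sdha, Ndufb10, Atp5j, Atp5l, Ndufs5, Des, genes with symbols just outside the rule and genes called without shPostn replicate 3 were added once their values had been seen. The members and lists were chosen with earlier results of these data known.

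The alternatives were other scalings (relative log expression, upper quartile, library totals, mitochondrial RNA left out), other count filters, DESeq2 1.42.0, limma-voom 3.58.1, the replicate number as a block, mean leukocyte marker level as a covariate, chromosome medians taken out, each library left out, and, added after seeing the data, copies summed. The result of 1 group of members is not reported here. The labels give no batch. Figures were drawn with matplotlib 3.10.9.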

Additional observations from a re-analysis of the deposited data

How the results depend on the processing

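Every alternative kept the direction of all 5 called members. Over all genes, 1300 were called, and the count was 654 with chromosome medians taken out, 2173 with the pan-leukocyte covariate, 735 with the replicate block and 307 to 2229 with a library left out, copies summed or not. DESeq2 called 1942 genes. The 1 member called higher became 2 under DESeq2, 2 under limma-voom, 3 with the covariate, 0 with chromosome medians taken out, 0 with the replicate block and 0 to 4 with a library left out, also with copies summed. The 4 called lower became 7 under DESeq2 and stayed between 3 and 6 elsewhere, including 3 to 6 with a library left out. Under the replicate block Sdhc (adjusted p = 0.0524), Atp5mpl (0.0654) and Postn (log2 fold change −3.16, adjusted p = 0.0592) were no longer called. Deviations of same-numbered libraries from their group means had correlations of −0.00656, −0.0644 and −0.467. The labels do not say whether the numbers pair libraries, and so few libraries cannot settle it. The cause of the shifts between settings was not tested. Fits with a library left out also rest on fewer libraries, and the part of this in their shifts was not tested either. Upper quartile scaling and DESeq2 also called Sdhb (adjusted p = 0.0474 and 0.0304). Without shSCR replicate 1 or 2, Postn had an adjusted p of 0.0532 or 0.0542, and its log2 fold change lay between −3.40 and −2.71 with a library left out. Depth limits Cox4i2, Cox7a1 and Cox7b2, which had at most 57 counts over the 3 libraries of a group.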
